A study of Homo sapiens with 24 samples.

Results

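The genes described here are 9 genes of MHC class I antigen presentation, out of 60675 genes in the count files. They were chosen by name as a pathway, with no threshold on a measured value but with earlier results of these data known, and their symbols were matched to the Ensembl gene identifiers on chromosomes 6 and 15. They are the heavy chain genes HLA-B, HLA-C, HLA-E and HLA-F, the light chain gene B2M, the peptide transporter genes TAP1 and TAP2, and the immunoproteasome genes PSMB8 and PSMB9. RNA-seq was performed in 24 libraries from ACHN cells, a human renal cancer line that the labels call ccRCC, and HK2 cells, an immortalised human kidney proximal tubule epithelial line. In each line, 3 libraries came from each of 4 groups: the control hairpin (shNC), the KDM5C knockdown (shKDM5C), the YY1 knockdown (shYY1) and the double knockdown (labelled Dsh). KDM5C is a histone H3 lysine 4 demethylase, and YY1 is a zinc finger transcription factor that can activate or repress its targets. All cells, controls included, carried lentiviral pLKO.1 hairpins and were selected with puromycin, whereas the double knockdown was made by a further infection of YY1-depleted cells with a GFP-labelled KDM5C hairpin. Which of the study's hairpins each group carried is not given in the sources used here, and nothing says that the replicates were separate cultures, so p-values measure the spread between these libraries, which may be technical.

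MHC class I molecules show peptides from inside the cell to cytotoxic T cells. The proteasome, in which the PSMB8 and PSMB9 subunits can replace constitutive subunits, cuts proteins into peptides. The TAP1 and TAP2 proteins form the transporter that carries these into the endoplasmic reticulum, where they bind a heavy chain paired with B2M. HLA-B and HLA-C are classical heavy chains, while HLA-E is known as a ligand of natural killer cell receptors and HLA-F is a nonclassical heavy chain. The genes of the pathway are known for their induction by interferons, through IRF and STAT factors, and for activation by NLRC5 and NF-kB.

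The members lie in 2 parts of the genome (GRCh38, positions as in the count files). Except for B2M, which spans 44711477 to 44718877 of chromosome 15, all are in the MHC region of chromosome 6. TAP2 (32821833 to 32838780), PSMB8 (32840717 to 32844703), PSMB9 (32844136 to 32859585) and TAP1 (32845209 to 32853978) are neighbours there. HLA-F (29722775 to 29738528), HLA-E (30489467 to 30494205), HLA-C (31268749 to 31272130) and HLA-B (31353872 to 31357188) lie apart from them. TAP1 and PSMB9 are read in opposite directions, and their RefSeq starts are 488 bases apart. RefSeq promoter sequences (GRCh38.p14) were matched for 8 of the 9 members, all but HLA-E. In the 250 bases upstream of the start, both strands were searched for an interferon-stimulated response element (ISRE, a pair of GAAA blocks 2 bases apart) and an NF-kB site (GGGA, N, T, NN, CC). An ISRE was found in HLA-F, B2M, TAP1 and TAP2, as in 3.02% of 35116 promoters, and an NF-kB site was found in HLA-B, HLA-C, B2M and TAP1, as in 4.46% of promoters. Overlapping matches were allowed, and a match is a description of the letters only. Elements that depart from these exact letters were not searched for, so a window without a match may still hold one. The YY1 letters AAGATGG, present in 3.70% of promoters, were in none of these 8 windows. At that share 8 windows are too few to tell the members from other promoters, and bases downstream of the start were not searched. Stretches of the promoters are shown 5′ to 3′ on the strand of the gene, with ISRE and NF-kB matches in capitals, for the genes on which the results turn. HLA-B and TAP1 fell furthest in HK2 shYY1, TAP1 and PSMB9 went in opposite directions in ACHN Dsh, and PSMB9, HLA-C and B2M rose most in HK2 Dsh. The HLA-B stretch is chr6:31357300-31357429, the HLA-C stretch chr6:31272138-31272342, the B2M stretch chr15:44711327-44711476, the TAP1 stretches chr6:32853816-32853845 and chr6:32853757-32853786, and the PSMB9 stretch chr6:32853982-32854141, with HLA-B, HLA-C and TAP1 on the minus strand.
HLA-B: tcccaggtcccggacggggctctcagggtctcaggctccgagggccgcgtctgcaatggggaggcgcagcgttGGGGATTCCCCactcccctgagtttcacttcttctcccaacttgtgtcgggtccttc
HLA-C: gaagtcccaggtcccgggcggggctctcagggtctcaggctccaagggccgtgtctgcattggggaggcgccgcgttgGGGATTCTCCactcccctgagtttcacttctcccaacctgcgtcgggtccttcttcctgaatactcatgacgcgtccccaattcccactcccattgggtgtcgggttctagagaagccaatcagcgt
B2M: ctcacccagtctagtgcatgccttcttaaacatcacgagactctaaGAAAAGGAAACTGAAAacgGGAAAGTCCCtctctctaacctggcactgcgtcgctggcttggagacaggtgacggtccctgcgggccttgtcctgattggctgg
TAP1 ISRE: cggccgcTTTCGATTTCGCTTTCccctaaa
TAP1 NF-kB site: gcctgttcctGGGACTTTCCgagagccccg
PSMB9: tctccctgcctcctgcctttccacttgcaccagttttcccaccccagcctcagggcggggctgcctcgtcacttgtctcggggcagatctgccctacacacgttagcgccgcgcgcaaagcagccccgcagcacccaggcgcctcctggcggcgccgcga
HLA-B and HLA-C carry their NF-kB letters at nearly the same distance from the start, and the TAP1 windows hold both kinds of match. The PSMB9 stretch, which is part of the interval shared with TAP1, holds neither. The TAP1 windows lie in that same interval, but further from the PSMB9 start than the 250 bases searched.

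The libraries held 15926561 to 24272298 assigned counts, and each member was counted at least 68 times in every library. Levels are given as CPM (counts scaled to a common library size) after TMM scaling over the 24 libraries, which corrects the library sizes for composition. KDM5C mean CPM was 70.4 in ACHN shNC, 42.8 in shKDM5C and 40.5 in Dsh, and 192, 56.9 and 68.1 in the HK2 groups. YY1 mean CPM was 138 in ACHN shNC, 76.5 in shYY1 and 96.7 in Dsh, and 209, 64.2 and 74.1 in HK2. The targeted transcripts were therefore lower in each group labelled for them. In shYY1, KDM5C mean CPM was 90.3 in ACHN and 244 in HK2, with every library above those of the line's shNC. Of 9 immune cell markers, 1 averaged 1 CPM or more in each line (ITGAM in ACHN and CD14 in HK2), and the list summed to 1.17 to 3.08 CPM in ACHN and 3.29 to 7.89 CPM in HK2 libraries. PTPRC, the pan-leukocyte gene, averaged 0 to 0.124 CPM. Of 9 kidney tubule markers, 5 averaged at least 1 CPM in every group, and LRP2, the proximal tubule receptor megalin, was at or near 0 in both lines. The 4 epithelial markers summed to 1650 to 1696 CPM in ACHN shNC, 2124 to 2222 CPM in shKDM5C, 2075 to 2130 CPM in shYY1 and 823 to 924 CPM in Dsh. In HK2 they summed to 2429 to 2546 CPM in shNC, 2060 to 2557 CPM in shKDM5C, 1586 to 1681 CPM in shYY1 and 1010 to 1111 CPM in Dsh. The 2 mesenchyme markers summed to 837 to 861 CPM in ACHN shNC, 1265 to 1283 CPM in shKDM5C, 872 to 888 CPM in shYY1 and 1146 to 1197 CPM in Dsh, and to 591 to 620 CPM in HK2 shNC, 565 to 786 CPM in shKDM5C, 674 to 763 CPM in shYY1 and 768 to 832 CPM in Dsh. The part of these shifts in the results was not tested. One library stood apart from its group before any result: in HK2 shKDM5C replicate 1, 2020 of 14936 genes were more than 2-fold from both other replicates, and results that rest on it are given with and without it.

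Per length of annotated exon, HLA-B, HLA-C, HLA-E and B2M had the highest levels in the shNC groups of both lines. The heavy chain gene HLA-F had the lowest. In ACHN shNC, mean RPKM (CPM divided by the listed gene length in kilobases) were 214 ± 6.08 for HLA-C, 98.2 ± 2.66 for B2M, 62.0 ± 1.60 for HLA-B and 40.0 ± 0.970 for HLA-E (SD, n = 3, as throughout). PSMB8 followed at 31.4 ± 2.10, PSMB9 at 19.0 ± 1.26, TAP1 at 10.2 ± 0.467, TAP2 at 5.43 ± 0.237 and HLA-F at 1.60 ± 0.0923. Every step in this order was larger than the SDs of the neighbours. In HK2 shNC the levels of HLA-C (60.6 ± 3.17 RPKM), HLA-E (51.3 ± 0.863 RPKM), B2M (50.2 ± 0.634 RPKM) and HLA-B (42.1 ± 1.59 RPKM) were closer together, and HLA-E and B2M were within their spread. Then came PSMB8 (28.7 ± 3.55 RPKM), TAP1 (7.99 ± 0.834 RPKM), PSMB9 (5.34 ± 0.685 RPKM), TAP2 (3.93 ± 0.631 RPKM) and HLA-F (2.64 ± 0.146 RPKM). By this measure the lines thus differed in the order of TAP1 and PSMB9. The listed length is the union of annotated exons, which lowers genes with rarely used exons, so the order of genes within a line depends on it.

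Control cells of the lines were compared directly, with edgeR's quasi-likelihood test and Benjamini-Hochberg adjustment over all genes, as in every comparison here; a gene is called when its adjusted p is under 0.05. In all, 6 members were higher in ACHN than in HK2 and 2 were lower, where 38.6% of all genes tested were called higher and 38.0% lower. PSMB9 (log2 fold change 1.84 ± 0.0798 SE, adjusted p 7.39e-18) and HLA-C (1.83 ± 0.0380 SE, adjusted p 3.36e-25) were about equally far apart. B2M was 1.97-fold higher in ACHN, and HLA-B, TAP2 and TAP1 followed with log2 fold changes of 0.57, 0.48 and 0.36. HLA-E fell by 0.35 and HLA-F fell by 0.71 on the log2 scale relative to HK2, whereas PSMB8 did not pass the test (log2 fold change 0.14, adjusted p 0.0720). HLA genes are polymorphic and were aligned to a reference genome, so a difference in level and a difference in how well each line's alleles align cannot be told apart here. In bulk RNA, a change in every cell and a change in some cells cannot be told apart either.

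**Figure D1:**
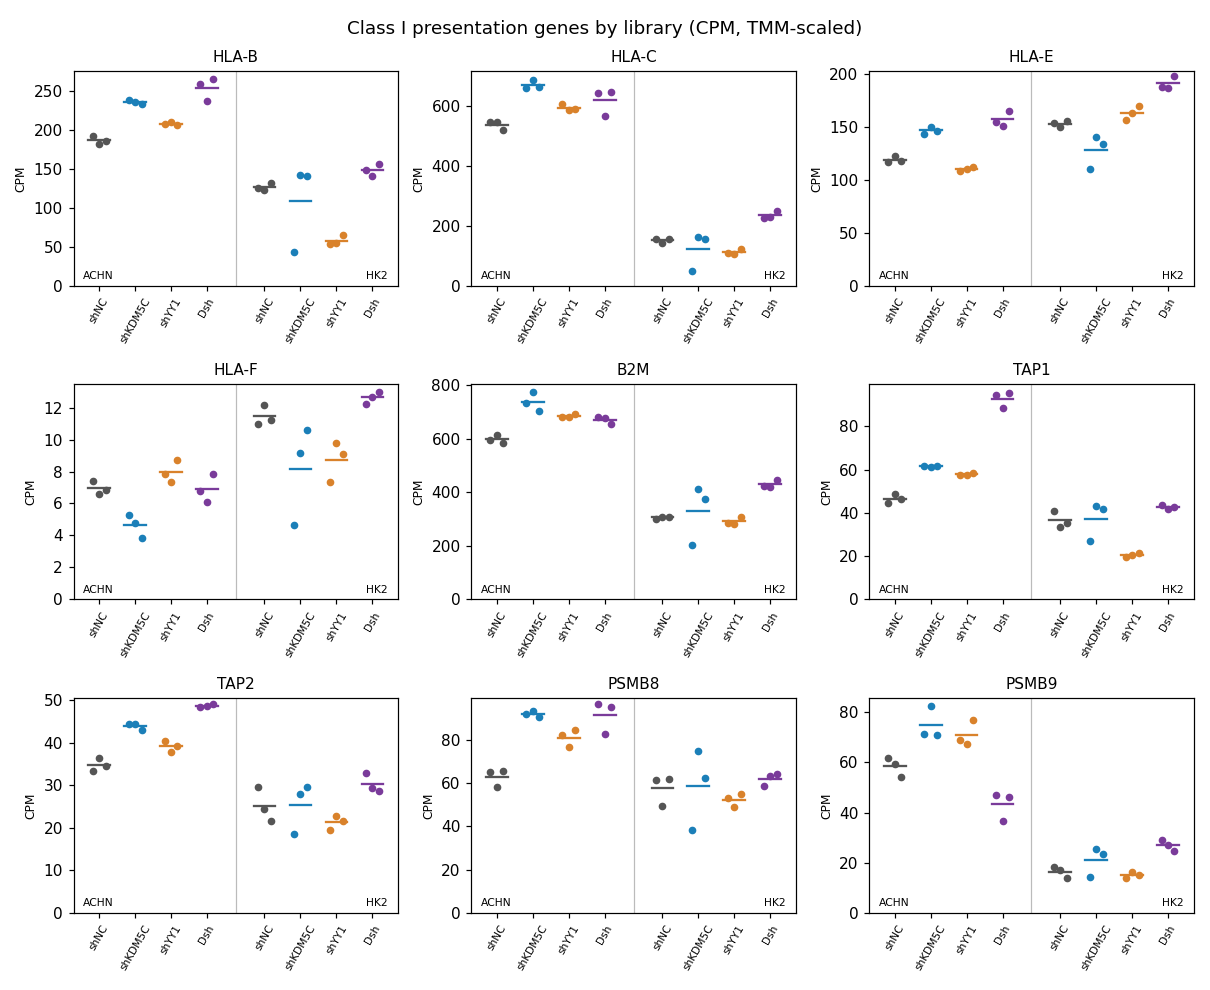
Level of each member in all 24 libraries, in CPM after TMM scaling (vertical axes, starting at 0), with 1 point a library and a bar at the group mean, for ACHN on the left and HK2 on the right of each panel. In HK2 the shYY1 libraries are the lowest for TAP1 (19.4 to 21.4 CPM), and in ACHN the Dsh libraries are the highest for TAP1 (88.5 to 95.7 CPM) but the lowest for PSMB9 (36.7 to 47.0 CPM).

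In ACHN cells, KDM5C knockdown raised 8 of the 9 members and lowered 1. The share of all 16184 genes tested that was called was 28.9% higher and 27.7% lower, and the median log2 fold change was 0.32 for the members and -0.01 for all genes. The immunoproteasome gene PSMB8 had 65.2, 58.2 and 65.8 CPM in shNC and 92.0, 93.6 and 90.5 CPM in shKDM5C libraries, a 1.44-fold rise (log2 fold change 0.53 ± 0.0467 SE, adjusted p 4.16e-10). PSMB9 rose 1.27-fold. Of the transporter genes, TAP1 went from 44.5, 48.8 and 46.5 CPM to 61.6, 61.3 and 61.7 CPM (log2 fold change 0.39 ± 0.0492 SE, adjusted p 2.45e-07), and TAP2 rose by a log2 fold change of 0.32. All shKDM5C libraries were above all shNC libraries for both. HLA-B, HLA-C, HLA-E and B2M rose together within a narrow range, with log2 fold changes of 0.32, 0.30, 0.29 and 0.29. HLA-F moved the other way, from 7.39, 6.61 and 6.83 CPM to 5.26, 4.80 and 3.85 CPM (log2 fold change -0.60 ± 0.144 SE, adjusted p 0.000976). HLA-F is the member with the lowest counts, and 28.5% of its exonic length is shared with other annotated genes, including its antisense gene HLA-F-AS1. Since no strand option was used in counting, reads from the 12.3% of its length that is shared with HLA-F-AS1 cannot be assigned to one or the other.

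After YY1 knockdown in ACHN, 7 of the members rose and 1 fell, against 24.2% and 24.5% of all genes. The median log2 fold change was 0.17 for the members and -0.01 for all genes. PSMB8 rose again, to 82.4, 76.6 and 84.4 CPM (log2 fold change 0.34 ± 0.0479 SE, adjusted p 3.25e-07). TAP1 reached 57.4, 57.4 and 58.6 CPM (log2 fold change 0.29 ± 0.0498 SE, adjusted p 1.07e-05), above every shNC library. PSMB9, B2M, TAP2, HLA-B and HLA-C rose by log2 fold changes of 0.26, 0.17, 0.15, 0.13 and 0.12. TAP2 lost its call without shNC replicate 1 (adjusted p 0.104), shNC replicate 3 (adjusted p 0.0637) or shYY1 replicate 1 (adjusted p 0.107). HLA-E fell by 0.13 on the log2 scale, from 117, 122 and 118 CPM to 108, 110.5 and 111 CPM, with no overlap. HLA-F had a log2 fold change of 0.17 and overlapped the control (adjusted p 0.243).

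The double knockdown in ACHN gave the largest rise of a member in this line, beside a fall of another, as each single knockdown also lowered 1 member. Of the members, 7 rose and 1 fell, against 30.7% and 32.0% of all genes, and the median log2 fold change was 0.40 for the members and -0.01 for all genes. TAP1 stood at 94.5, 88.5 and 95.7 CPM, 2.00-fold above shNC (log2 fold change 1.00 ± 0.0558 SE, adjusted p 1.83e-11). PSMB8 (0.54), TAP2 (0.49), HLA-B (0.45) and HLA-E (0.40) rose by the log2 fold changes in parentheses, and HLA-C (0.21) and B2M (0.17) rose less. HLA-B was at 259, 237 and 265 CPM against 192, 182 and 186 CPM in shNC. PSMB9 fell instead, from 61.7, 59.4 and 54.1 CPM to 47.0, 36.7 and 46.3 CPM (log2 fold change -0.42 ± 0.0802 SE, adjusted p 0.000146), and its groups did not overlap. HLA-F overlapped the control, with 6.77, 6.07 and 7.84 CPM (log2 fold change 0.00 ± 0.135 SE, adjusted p 0.996).

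**Figure D2:**
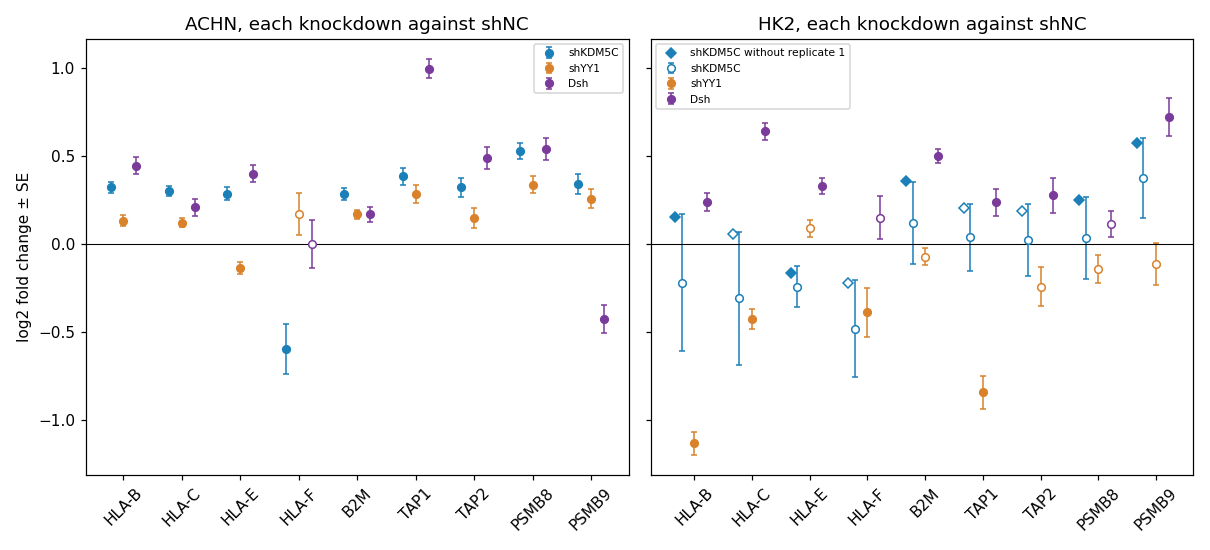
Log2 fold change of each member against shNC (vertical axis) with its standard error as bars, for each knockdown in ACHN (left) and HK2 (right); filled points are called at adjusted p under 0.05 and open points are not. Diamonds in the HK2 panel show shKDM5C without replicate 1, where PSMB9 is at 0.58 instead of 0.38.

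TAP1 and PSMB9, whose starts face away from each other, both rose in the single knockdowns of ACHN and went in opposite directions in the double knockdown. The ratio of TAP1 to PSMB9 per exonic length was 0.537 ± 0.0479 in shNC, 0.553 ± 0.0474 in shKDM5C and 0.547 ± 0.0324 in shYY1. In Dsh it was 1.35, 1.62 and 1.39, with a mean of 1.45 ± 0.145. None of the Dsh libraries came near those of the other ACHN groups, whose highest ratio was 0.582. In HK2 the ratio was 1.51 ± 0.180 in shNC, 1.20 ± 0.0705 in shKDM5C, 0.906 ± 0.0652 in shYY1 and 1.08 ± 0.0855 in Dsh, and without replicate 1 it was 1.16 ± 0.0401 in shKDM5C (SD, n = 2). The ratio in HK2 was thus above 0.8 in every library of every group. PSMB9 and TAP1 share 5.66% and 9.96% of their exonic length with PSMB8-AS1, a gene with 522 counts over the 24 libraries against 18261 for PSMB9 and 22274 for TAP1.

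**Figure D3:**
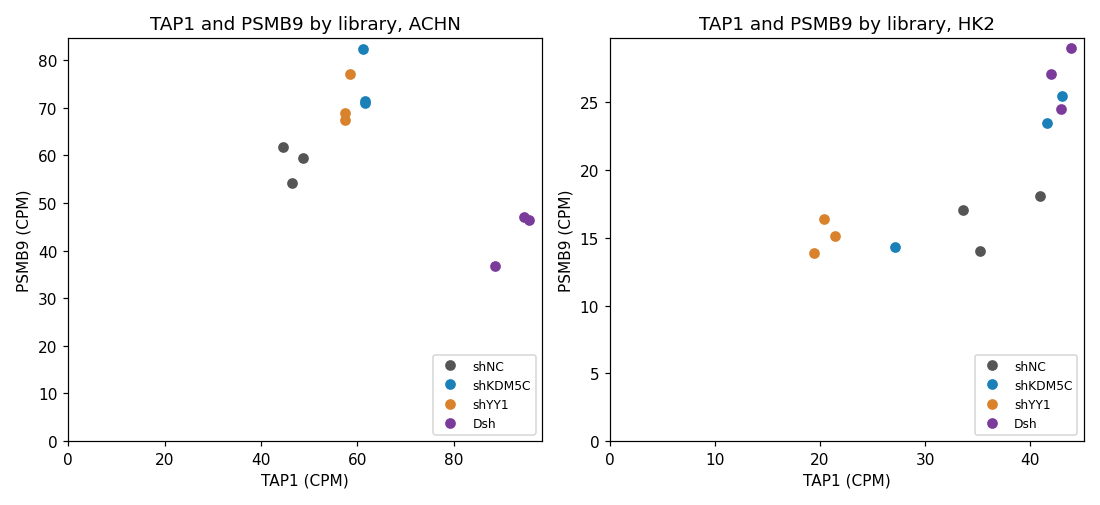
TAP1 level (horizontal axis) against PSMB9 level (vertical axis) in CPM, with 1 point a library, for ACHN (left) and HK2 (right), coloured by group. The 3 ACHN Dsh libraries lie apart at the lower right, with TAP1 at 88.5 to 95.7 CPM and PSMB9 at 36.7 to 47.0 CPM.

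YY1 knockdown in HK2 cells lowered 4 of the 9 members and raised none, where 14.7% of all 16071 genes were called lower and 14.3% higher. The members had a median log2 fold change of -0.24, against 0.01 for all genes. HLA-B fell furthest, from 125, 123 and 132 CPM in shNC to 53.9, 55.0 and 64.8 CPM in shYY1 (log2 fold change -1.13 ± 0.0666 SE, adjusted p 2.36e-11). TAP1 fell from 40.9, 33.6 and 35.2 CPM to 19.4, 20.3 and 21.4 CPM (log2 fold change -0.84 ± 0.0933 SE, adjusted p 4.15e-07). Both groups were far apart, with the highest shYY1 library well under the lowest shNC library. HLA-C fell by 0.43 on the log2 scale, from 156, 143 and 157 CPM to 111, 107 and 122 CPM. HLA-F fell by 0.39 (adjusted p 0.0388), but this call was lost when any of 5 of the 6 libraries was left out, with adjusted p from 0.0619 to 0.170. The light chain gene B2M (log2 fold change -0.07), the transporter gene TAP2 (-0.24), PSMB8 (-0.14), PSMB9 (-0.11) and HLA-E (0.09) did not pass the test. HLA-E in shYY1, at 156, 162 and 170 CPM, nevertheless lay just above all shNC libraries (150 to 155 CPM).

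KDM5C knockdown in HK2 gave no call for any member, but the result turned on 1 library. Over all 16161 genes tested, 0.668% were called higher and 0.656% lower, and 0 members had an unadjusted p under 0.05 with edgeR or were called with DESeq2. Replicate 1 had 43.0 CPM of HLA-B against 142 and 141 CPM in the other replicates. For HLA-C it had 50.1 CPM against 162 and 156 CPM, and for B2M 203 CPM against 411 and 377 CPM. It was the lowest of the group for every member, and for KDM5C as well, with 35.9 CPM against 67.9 and 67.0 CPM. Without this library, 11.5% of genes were called higher and 10.9% lower, and 4 members were called higher and 1 lower. PSMB9 then rose by a log2 fold change of 0.58, B2M by 0.36, PSMB8 by 0.25 and HLA-B by 0.15, while HLA-E fell by 0.16. With all HK2 groups in 1 fit and without this library, 3 members were higher and 1 lower, against 9.64% and 8.89% of genes. HLA-B lost its call there (adjusted p 0.0963).

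In the double knockdown of HK2, 7 members rose and none fell, against 25.5% and 24.3% of all 16217 genes; the median log2 fold change of the members was 0.28, against 0.00 for all genes. PSMB9 rose most, from 18.1, 17.1 and 14.0 CPM to 29.0, 27.1 and 24.5 CPM (log2 fold change 0.72 ± 0.106 SE, adjusted p 9.64e-07), the opposite of its direction in ACHN. HLA-C went from 156, 143 and 157 CPM to 227, 231 and 249 CPM (log2 fold change 0.64 ± 0.0487 SE, adjusted p 1.70e-12). B2M reached 423, 421 and 447 CPM from 302, 307 and 309 CPM (log2 fold change 0.50 ± 0.0410 SE, adjusted p 8.47e-12). For these genes no Dsh library overlapped a control library. HLA-E rose by a log2 fold change of 0.33, TAP2 by 0.28, and HLA-B and TAP1 by 0.24 each. The call of TAP1 was lost without shNC replicate 2 (adjusted p 0.0752) or 3 (adjusted p 0.0553). TAP2 lost its call without shNC replicate 2 (adjusted p 0.0721), shNC replicate 3 (adjusted p 0.174) or Dsh replicate 1 (adjusted p 0.126). HLA-F (0.15) and PSMB8 (0.12) did not pass the test. When all 12 HK2 libraries shared 1 estimate of the spread, 2 members were called higher in Dsh and 1 was called lower in shYY1. The share of all genes called in that fit is not given here, so these counts cannot be read as particular to the members. Without shKDM5C replicate 1 in that fit the counts were 7 and 4, as in the fits of the compared groups alone. Of all genes, 23.3% were then called higher in Dsh and 14.3% lower in shYY1.

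Compared with YY1 knockdown alone, the double knockdown of HK2 had all 9 members higher, against 24.8% of genes higher and 22.9% lower. HLA-B was 2.59-fold higher (log2 fold change 1.38 ± 0.0680 SE, adjusted p 6.64e-14), TAP1 2.12-fold, HLA-C 2.10-fold and PSMB9 1.79-fold. The smallest difference was that of HLA-E, 1.18-fold. Against KDM5C knockdown, 1 member (HLA-E, log2 fold change 0.57, adjusted p 0.0262) was called higher and none lower, with 6.26% and 5.59% of genes called. The call of HLA-E was lost, leaving 0, without shKDM5C replicate 2 or 3 or any single Dsh library. Without shKDM5C replicate 1, the members called higher were HLA-C (0.58), HLA-E (0.49), HLA-F (0.37) and B2M (0.14), against 22.2% of genes. In ACHN, Dsh had 5 members higher and 2 lower than shKDM5C (31.6% and 30.9% of genes), and 5 higher and 1 lower than shYY1 (32.0% and 32.7% of genes). TAP1 was higher in both, by log2 fold changes of 0.62 and 0.69, and PSMB9 fell by 0.77 and by 0.70. HLA-F was 1.51-fold higher in Dsh than in shKDM5C, at 6.07 to 7.84 CPM against 3.85 to 5.26 CPM. The small changes of HLA-B, HLA-E, TAP2 and B2M between Dsh and shKDM5C were less firm, since the count of members higher was 2 without shKDM5C replicate 1, 2 or 3 or Dsh replicate 3, and 3 without Dsh replicate 1, and the count lower was 1 without shKDM5C replicate 1 or 2. These comparisons share the Dsh libraries.

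The interaction of the knockdowns is the log2 fold change of Dsh minus the sum of those of the single knockdowns. A further infection, with a GFP-labelled hairpin, is described only for Dsh. Its effect and an interaction cannot be told apart here, and the same limit holds for the other comparisons with Dsh. YY1 was also less reduced in Dsh than in shYY1: 90.2, 104 and 95.9 against 79.6, 72.8 and 77.0 CPM in ACHN. In HK2 it was at 75.2, 74.8 and 72.3 against 61.8, 67.8 and 62.9 CPM. In ACHN 2 members were called above the sum and 4 below it, with 26.8% and 28.8% of genes. PSMB9 lay furthest below, by -1.05 ± 0.108 SE (adjusted p 6.77e-09), since it rose in both single knockdowns and fell in the double. PSMB8 (-0.35), B2M (-0.31) and HLA-C (-0.24) were also below the sum, whereas TAP1 (0.30) and HLA-E (0.22) were above it. HLA-B (-0.04) and TAP2 (-0.01) did not pass the test. In HK2, 3 members were called above the sum and none below, with 5.21% and 4.40% of genes. TAP1 had an interaction of 1.04 ± 0.209 SE (adjusted p 0.00819), HLA-B of 1.58 ± 0.428 SE (adjusted p 0.0357) and HLA-E of 0.48 ± 0.127 SE (adjusted p 0.0329). Without shKDM5C replicate 1, 6 members were above the sum, against 2650 of 17642 genes. The calls of HLA-B and HLA-E were lost, leaving 1, when any single library of shNC, shYY1 or Dsh was left out, and 5 members were called without shKDM5C replicate 3. Without replicate 1 the 6 were HLA-B (1.23), HLA-C (1.02), TAP1 (0.88), HLA-F (0.77), HLA-E (0.41) and B2M (0.22).

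**Figure D4:**
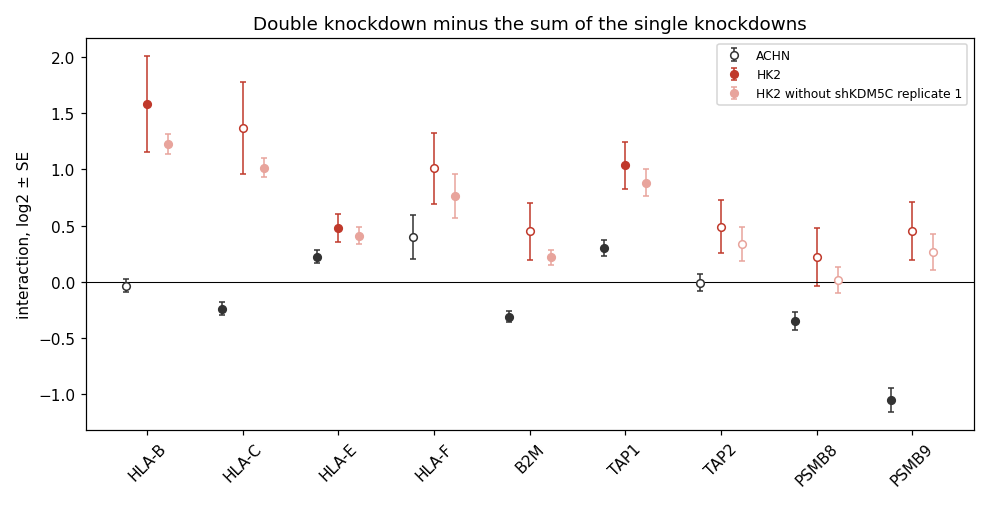
Interaction of the knockdowns for each member, on the log2 scale with its standard error (vertical axis), for ACHN, for HK2 and for HK2 without shKDM5C replicate 1; filled points are called at adjusted p under 0.05. HLA-B is at -0.04 in ACHN and at 1.58 in HK2, and PSMB9 at -1.05 and 0.45.

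Whether a knockdown acted differently in the lines was tested as a difference of log2 fold changes, ACHN minus HK2. For YY1 knockdown, the difference was called positive for 8 members and negative for 1, with 16.6% and 16.5% of genes. HLA-B differed most (1.28 ± 0.0714 SE, adjusted p 1.70e-14), followed by TAP1 (1.14 ± 0.102 SE, adjusted p 4.16e-10) and HLA-C (0.56). HLA-E was the negative one, at -0.21. For the double knockdown, 3 differences were positive and 3 negative, with 23.3% and 22.7% of genes. PSMB9 had a difference of -1.13 ± 0.135 SE (adjusted p 5.52e-08) and TAP1 of 0.78 ± 0.0955 SE (adjusted p 8.38e-08). PSMB8 (0.45) and HLA-B (0.22) were also positive, and HLA-C (-0.41) and B2M (-0.31) negative. With all groups of both lines in 1 fit, the counts were 2 and 0 for YY1 knockdown and 1 and 1 for the double knockdown. The shares of all genes called in that fit are not given here. Without HK2 shKDM5C replicate 1 in that fit the counts were 8 and 1 for YY1 knockdown, against 15.2% and 13.7% of genes. For the double knockdown they were then 3 and 3, against 22.2% and 21.5% of genes. For KDM5C knockdown, 1 member (HLA-E, 0.54, adjusted p 0.0120) was called positive and none negative, with 5.74% and 6.18% of genes. Without HK2 shKDM5C replicate 1, HLA-E (0.46), PSMB8 (0.29), HLA-C (0.25) and HLA-B (0.18) were positive, against 18.6% of genes.

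Because heavy chain genes are close paralogs whose reads can be assigned to one another, HLA-B, HLA-C, HLA-E and HLA-F were also summed before the fit. The sum rose in ACHN shKDM5C (log2 fold change 0.30 ± 0.0268 SE), in ACHN shYY1 (0.09 ± 0.0246 SE) and in ACHN Dsh (0.29 ± 0.0464 SE). In HK2 it fell in shYY1 (-0.37 ± 0.0489 SE, adjusted p 4.48e-06) and rose in Dsh (0.42 ± 0.0409 SE, adjusted p 4.43e-10). It was not called in HK2 shKDM5C (-0.26, adjusted p 0.614), and without replicate 1 the value was 0.01 ± 0.0384 SE (adjusted p 0.916). Fitted singly, the heavy chain genes had a median of -0.41 in HK2 shYY1 and 0.29 in HK2 Dsh.

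Other genes of the pathway were followed in 8 lists of 89 genes in all, whose counts stand against the shares of all genes given above for each comparison. In the peptide loading and trimming list, 8 of 10 genes tested rose and none fell in ACHN shKDM5C, 6 rose and 3 fell in ACHN Dsh, and 6 rose and 2 fell in HK2 Dsh, with median log2 fold changes of 0.26, 0.25 and 0.23. ERAP1, an aminopeptidase that trims peptides in the endoplasmic reticulum, went from 59.2 ± 1.76 to 124 ± 6.16 CPM in ACHN Dsh and from 66.9 ± 2.95 to 115 ± 1.53 CPM in HK2 Dsh. Its log2 fold changes there were 1.07 and 0.80, and it also rose in ACHN shKDM5C (0.53). ERAP2, its paralog, rose in the double knockdowns of ACHN (0.54) and HK2 (0.51), but had -0.10 and -0.09 in the ACHN single knockdowns and was not called. LNPEP, a related aminopeptidase, fell by 0.54 in HK2 Dsh. The 5 remaining immunoproteasome and activator genes all rose in ACHN shKDM5C (median 0.49), whereas 1 rose and 1 fell in ACHN Dsh and 3 rose and 1 fell in HK2 Dsh. PSMB10, which encodes the remaining inducible catalytic subunit, rose in ACHN shKDM5C (0.72), shYY1 (0.61) and Dsh (1.16) and in HK2 Dsh (0.50). Thus in ACHN Dsh the immunoproteasome subunits PSMB10 and PSMB8 rose while PSMB9 fell. The proteasome activator gene PSME1 also fell in ACHN Dsh, by 0.22, and PSME3, a nuclear activator subunit, fell in HK2 Dsh by 0.67.

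The 3 constitutive catalytic subunits, PSMB5, PSMB6 and PSMB7, all rose in ACHN shKDM5C and shYY1 (medians 0.18 and 0.44) and all fell in ACHN Dsh (median -0.40). PSMB5, the counterpart of PSMB8, was at 112, 115 and 113 CPM in ACHN shNC and at 64.7, 49.8 and 57.8 CPM in Dsh (log2 fold change -0.97), after rising in the single knockdowns by 0.30 and 0.51. PSMB6, the counterpart of PSMB9, fell by 0.40 in ACHN Dsh and by 0.36 in HK2 Dsh. PSMB9 and the constitutive subunits were thus alike in rising in each single knockdown of ACHN and falling in the double.

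Among 14 class I transcription factor genes, 9 rose and 2 fell in ACHN shKDM5C, 8 rose and 3 fell in ACHN Dsh, and 3 rose and 1 fell in HK2 Dsh, with medians of 0.18, 0.19 and 0.05. IRF1, an interferon-induced activator of class I genes, went from 22.4, 27.8 and 24.1 CPM in ACHN shNC to 74.6, 74.2 and 73.9 CPM in Dsh (log2 fold change 1.59, adjusted p 6.62e-13). It rose by 0.57 in ACHN shKDM5C, 0.33 in ACHN shYY1 and 0.48 in HK2 Dsh. NFKB1 rose by 0.67 in ACHN Dsh, and EZH2, a histone H3 lysine 27 methyltransferase, fell by 0.87. NLRC5, the class I transactivator, was picked after its values were seen. It fell from 33.9, 31.1 and 27.9 CPM in HK2 shNC to 23.8, 21.3 and 20.4 CPM in shYY1 (log2 fold change -0.50, adjusted p 0.000358). Of the 14 genes of its list, 3 rose and 2 fell in HK2 shYY1 (median 0.06), against 14.3% and 14.7% of all genes. In HK2 Dsh NLRC5 was at 30.7 to 31.7 CPM and was not called, while in ACHN it rose by 0.30 in shYY1 and by 0.45 in Dsh. It was not called in ACHN shKDM5C (-0.02, adjusted p 0.796). Whether NLRC5 had a part in the members' changes was not tested.

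Of 12 genes of interferon receptors and signalling, 8 rose and 2 fell in ACHN Dsh, 7 fell and 1 rose in HK2 shYY1, and 5 rose and 1 fell in HK2 Dsh, with medians of 0.42, -0.43 and 0.26. SOCS3, a feedback inhibitor of cytokine signalling, rose in all ACHN knockdowns (1.21 in shKDM5C, 0.50 in shYY1 and 1.42 in Dsh). In HK2 it fell by 0.62 in shYY1 and rose by 0.65 in Dsh. IFNAR2, a chain of the type I interferon receptor, did likewise in HK2 (-0.44 and 0.64). Of the interferon-stimulated genes, 6 of 15 tested rose and 5 fell in ACHN Dsh, and 11 of 16 rose and 1 fell in HK2 Dsh, with medians of 0.12 and 0.45. IFI44L rose in HK2 Dsh from 23.7 ± 1.33 to 74.1 ± 3.09 CPM, and IFIT2 and IFIT3 by log2 fold changes of 1.53 and 1.25. In HK2 shYY1, 1 gene of this list rose and 1 fell, of 15 tested.

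Of the genes of MHC class II and its factors, 5 of 8 tested fell and 1 rose in each single knockdown of ACHN, and 5 fell and 2 rose in Dsh (median -0.48). In HK2 Dsh, 2 of 4 tested rose and none fell (median 0.45). CD74, the class II invariant chain, fell from 97.5 ± 1.96 to 61.9 ± 2.27 CPM in ACHN Dsh but rose from 67.0 ± 0.738 to 149 ± 7.68 CPM in HK2 Dsh (log2 fold changes -0.65 and 1.16), and the difference between the lines was called (-1.80, adjusted p 6.25e-18). Of the class I-like genes and natural killer ligands, 7 of 13 tested fell and none rose in HK2 shYY1, and 8 of 14 rose and 1 fell in HK2 Dsh, with medians of -0.26 and 0.37. MICA, a ligand of the activating receptor NKG2D, was at 54.0, 52.7 and 57.1 CPM in HK2 shNC and at 101, 96.3 and 115 CPM in Dsh (log2 fold change 0.94). ULBP1 and ULBP3 are ligands of the same receptor. ULBP1 fell by 1.15 in ACHN Dsh, and ULBP3 fell by 1.26 in HK2 Dsh.

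The genes whose pattern was most like the members' mean, over 8 group means centred within each line, were GPR176 (Pearson r 0.973), RAB3D (0.970), ABCC10 (0.959), CNTROB (0.952) and NFKB2 (0.948). The group means share libraries and scaling, and the values are a description. This ranking rested on HK2 shKDM5C replicate 1: without it none of these genes remained among the 5 most alike of 11408, and GPR176 had an r of 0.765. The first 5 were then APOL6 (0.990), BAZ2A (0.982), NPTXR (0.977), NIPAL4 (0.975) and TMED10 (0.972). NFKB2, an NF-kB subunit gene, had 97.3, 140, 132 and 141 CPM in ACHN shNC, shKDM5C, shYY1 and Dsh, and 87.5, 89.8, 78.6 and 180.4 CPM in HK2. Within the set, TAP2 (r 0.925), HLA-C (0.922), B2M (0.915) and HLA-B (0.893) were closest to the mean of the members, to which each contributes, and HLA-F (0.397) was furthest from it. Without replicate 1, these values were 0.945, 0.937, 0.909, 0.905 and 0.294.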

How the data were processed

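The authors aligned paired reads with HISAT2 2.0.5 to GRCh38 and counted them per Ensembl gene with featureCounts, without a strand option (version 2.0.1 in the file headers, 1.5.0-p3 in the processing notes); the deposited values are raw counts. One ACHN Dsh file header names replicate 1 as its output but replicate 2 as its alignment. Here counts of each comparison's groups were filtered (filterByExpr), scaled by TMM and tested with edgeR 4.0.16 (quasi-likelihood, R 4.3.3), with Benjamini-Hochberg adjustment over all genes and calls at 0.05. The standard error is the log2 fold change over the square root of the F statistic. The fit was tested on simulated data. In RPKM, length is the union of annotated exons, which lowers genes with rarely used exons. Alternatives were RLE and total-count scaling, DESeq2 1.42.0, other filters, all groups in the fit, a replicate block, unadjusted p, summed heavy chains and each library left out. Members and lists were chosen with earlier results of these data known. In each list, up to 3 called genes with the largest change in a double knockdown and a mean of at least 5 CPM could be named; likeness was computed for genes of at least 10 CPM. A gene of the interferon signalling list is not reported here by name.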

Additional observations from a re-analysis of the deposited data

Results flagged for a closer look

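The effect of a knockdown on a member differed between the cell lines in 16 tests of the difference itself (log2 fold change in ACHN minus that in HK2, edgeR, adjusted p under 0.05). Each of the 9 members was tested for each knockdown. For KDM5C knockdown this was HLA-E (0.54), where 5.74% of all genes tested were called positive and 6.18% negative. The HLA-E call rests on a group with a library that stood apart. For YY1 knockdown these were HLA-B (1.28), TAP1 (1.14), HLA-F (0.57), HLA-C (0.56), PSMB8 (0.49), TAP2 (0.40), PSMB9 (0.38), B2M (0.25) and HLA-E (-0.21). Of all genes tested, 16.6% were called positive there and 16.5% negative. For the double knockdown these were TAP1 (0.78), PSMB8 (0.45), HLA-B (0.22), B2M (-0.31), HLA-C (-0.41) and PSMB9 (-1.13). There, 23.3% of all genes were called positive and 22.7% negative. TAP1, HLA-B and HLA-C were called in ACHN and HK2 in opposite directions after YY1 knockdown, and PSMB9 after the double knockdown. The share of all genes called in opposite directions is not given here.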

How the results depend on the processing

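The groups of 3 libraries and 1 library that stood apart limit these results, and the least counted member, HLA-F, is the least precise. Replicate numbers did not pair the libraries (correlations of deviations from -0.19 to 0.08). With the replicate block, ACHN Dsh against shKDM5C had 3 members higher and 1 lower, HK2 Dsh against shKDM5C had 0 higher, and KDM5C knockdown in ACHN against HK2 had 0 positive; no block could be fitted between the controls. The block also turned the signs of HLA-F in ACHN Dsh (-0.0071), PSMB8 in HK2 shKDM5C (-0.0044) and PSMB9 in the KDM5C difference between lines (0.00065), none of them called. With all groups in the fit, HK2 shYY1 had 1 member lower, HK2 Dsh 2 higher, HK2 Dsh against shKDM5C 2 higher, the YY1 difference between lines 2 positive and 0 negative, and the double knockdown difference 1 positive and 1 negative. In that fit without HK2 shKDM5C replicate 1, an alternative chosen after seeing the data, HK2 shKDM5C had 3 higher and 1 lower (9.64% and 8.89% of genes). HK2 Dsh against shKDM5C had 4 higher (20.5% of genes), and the KDM5C difference had 3 positive (16.3% of genes). Signs turned there for HLA-B (0.16) and HLA-C (0.059) in HK2 shKDM5C, PSMB8 in HK2 Dsh against shKDM5C (-0.13) and B2M in the KDM5C difference (-0.056). Without a filter, ACHN Dsh against shKDM5C had 2 higher and HK2 Dsh against shKDM5C 2 higher, and HLA-F in ACHN Dsh (-0.0056), PSMB8 in ACHN Dsh against shKDM5C (-0.021) and PSMB9 in the KDM5C difference (0.0035) turned. With at least 10 counts, TAP2 in the ACHN interaction turned (0.014). With total counts, ACHN Dsh against shKDM5C had 1 lower, and TAP1 (-0.030), TAP2 (-0.044) and PSMB8 (-0.029) in HK2 shKDM5C, B2M in ACHN Dsh against shYY1 (0.027), and HLA-B (0.061) and TAP2 (0.088) in the ACHN interaction turned. The HK2 interaction had 5 members above the sum with unadjusted p and with DESeq2, and HK2 Dsh against shKDM5C had 2 with unadjusted p. The summed heavy chains had an ACHN interaction of -0.13 (adjusted p 0.0486), where the median of the genes was 0.094. For alternatives printed without a share of all genes, that share is not given here. Their counts cannot be read as particular to the members. The causes were not tested.

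Over left-out libraries, counts ranged in HK2 shKDM5C from 0 to 4 higher and 0 to 1 lower, in ACHN Dsh against shKDM5C from 2 to 5 higher and 1 to 3 lower, in HK2 Dsh against shKDM5C from 0 to 4 higher, in the HK2 interaction from 1 to 6 above the sum, and in the KDM5C difference from 1 to 4 positive. In ACHN the calls against shKDM5C moved without shKDM5C replicate 1, 2 or 3 and Dsh replicate 1 or 3; in HK2 the higher count was 4 without shKDM5C replicate 1 and 0 without each other library of shKDM5C or Dsh. The HK2 interaction had 6 without shKDM5C replicate 1, 5 without shKDM5C replicate 3 and 1 without any single library of shNC, shYY1 or Dsh. Ranges that cross 0 were, in HK2 shKDM5C, HLA-B -0.44 to 0.15, HLA-C -0.55 to 0.058, B2M -0.057 to 0.36, TAP1 -0.064 to 0.21, TAP2 -0.090 to 0.19, PSMB8 -0.17 to 0.25 and the summed heavy chains -0.43 to 0.0081. Leaving libraries out of the summed heavy chains, the TAP1 to PSMB9 ratio and the likeness ranking was chosen after seeing the data. In ACHN they were HLA-F in Dsh (-0.10 to 0.093), PSMB8 in Dsh against shKDM5C (-0.033 to 0.083), B2M in Dsh against shYY1 (-0.030 to 0.0049), and HLA-B (-0.071 to 0.013) and TAP2 (-0.043 to 0.018) in the interaction. The others were PSMB8 in HK2 Dsh against shKDM5C (-0.14 to 0.29) and, in the KDM5C difference, HLA-F (-0.37 to 0.12), B2M (-0.069 to 0.37) and PSMB9 (-0.23 to 0.13).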
